A study of Homo sapiens with 6 samples.

Results

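Replication-dependent histone genes were described in BL2 cells, an established line from a human Burkitt lymphoma, after knockdown of the transcription factor LEF1. Genes were taken by symbol, as the somatic and testis linker histones H1-1 to H1-6 and the numbered H2AC, H2BC, H3C and H4C genes of the platform annotation. One probe set that names the gene alone stood for each, the one with the highest mean over 6 arrays. This gave 45 genes out of 19775 genes measured in this way. They comprised 6 H1, 9 H2A, 14 H2B, 7 H3 and 9 H4 genes, of which H2AC5P and H4C10P are pseudogenes. RefSeq lists 70 protein-coding genes under these symbols, 55 of them on chromosome 6 and 13 on chromosome 1. Of the 70, 43 were measured alone, 19 only through probe sets that name several histones, and 8 by no probe set. Probe sets were selected on their mean level, and the family itself was chosen from differences between LEF1 siRNA and scrambled siRNA in these same arrays, so those differences are given as a description, without a test.

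The series holds 3 arrays of BL2 cells electroporated with a pool of 4 siRNAs against LEF1 and 3 of BL2 cells electroporated with scrambled siRNA, in both cases grown in RPMI medium. They are 3 biological replicates per the design text, and each of 3 labelled batches holds 1 array of each group. The brightest LEF1 probe set read 8.21, 8.09 and 8.67 with LEF1 siRNA against 11.09, 10.58 and 11.45 with scrambled siRNA, so 15.2% of the signal was left (limma adjusted p = 0.0213 without block). Values are log2 expression, and a difference of 1 is a doubling of signal.

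Histones package DNA. H2A, H2B, H3 and H4 form the nucleosome core, and H1 binds the linker DNA between cores. Replication-dependent histone genes lie in clusters, mostly lack introns, and are transcribed mainly in S phase. Their main mRNAs end in a conserved stem-loop that binds the protein SLBP and carry no poly(A) tail. Some of these genes also give rise to polyadenylated transcripts. The labelling kit named in the labels primes on poly(A) tails, so the arrays read mainly polyadenylated RNA, and a level here is not the level of the stem-loop mRNA. Of the 45 genes, 19 lay above the median of all probe sets, 6.91, and the brightest, H2BC12, averaged 8.52. Array signals of dim probe sets include background, which makes a change in RNA look smaller.

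The genes that stood out were few. H2BC12 was about doubled in LEF1 siRNA cultures and H2AC6 was 1.80-fold higher, while most of the family differed little. Promoters of the 4 genes with the largest differences are shown, because histone promoters share short elements that can be read in them. They run from 250 bases before to 50 bases after the start, from the RefSeq table for GRCh38.p14, in the direction of transcription. Capitals mark the CCAAT box, the TATA element TATAAA and the octamer ATTTGCAT, on either strand, and neighbouring capitals can be overlapping matches.
H2BC12, chr6:27146809-27147108, minus strand: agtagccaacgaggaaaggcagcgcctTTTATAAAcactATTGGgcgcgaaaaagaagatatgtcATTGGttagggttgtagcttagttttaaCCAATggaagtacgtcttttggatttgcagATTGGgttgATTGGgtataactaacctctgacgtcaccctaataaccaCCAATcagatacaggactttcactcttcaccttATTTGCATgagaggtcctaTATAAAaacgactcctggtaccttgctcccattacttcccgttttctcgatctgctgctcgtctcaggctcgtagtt
H2AC6, chr6:26123922-26124221, plus strand: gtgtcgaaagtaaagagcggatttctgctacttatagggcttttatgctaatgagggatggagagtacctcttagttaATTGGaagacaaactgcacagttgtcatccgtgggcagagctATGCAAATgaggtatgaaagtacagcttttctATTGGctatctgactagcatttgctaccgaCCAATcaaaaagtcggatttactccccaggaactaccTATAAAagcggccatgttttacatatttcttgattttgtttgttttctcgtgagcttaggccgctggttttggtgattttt
H2BC5, chr6:26157871-26158170, plus strand: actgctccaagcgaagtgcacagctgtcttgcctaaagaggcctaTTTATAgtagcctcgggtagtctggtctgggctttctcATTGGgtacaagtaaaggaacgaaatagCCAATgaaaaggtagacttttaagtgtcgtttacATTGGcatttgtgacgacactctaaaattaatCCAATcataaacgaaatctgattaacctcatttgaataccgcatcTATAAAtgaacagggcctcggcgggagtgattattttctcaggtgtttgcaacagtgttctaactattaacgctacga
H2BC21, chr1:149886633-149886932, minus strand: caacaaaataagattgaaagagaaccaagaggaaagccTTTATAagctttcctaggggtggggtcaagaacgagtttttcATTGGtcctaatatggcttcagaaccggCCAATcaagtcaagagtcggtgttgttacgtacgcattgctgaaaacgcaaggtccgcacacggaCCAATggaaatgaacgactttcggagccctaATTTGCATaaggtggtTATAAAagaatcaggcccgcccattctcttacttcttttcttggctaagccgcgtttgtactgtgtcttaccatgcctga

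A promoter was held for 64 family genes. CCAAT was present in 54 of the 64 (84.4%), against 35.7% of all 27305 promoters in the table. It lay in all 6 H1, 16 H2A, 18 H2B and 11 H3 promoters, but in only 3 of 13 H4 promoters (23.1%). TATAAA was present in 42 (65.6%), against 11.95% of all promoters. ATTTGCAT, the octamer bound by POU factors and long known from H2B promoters, was present in 26 (40.6%), against 1.80% of all promoters. It lay in 14 of 18 H2B and 11 of 16 H2A promoters, in 1 of 11 H3 promoters and in none of 6 H1 or 13 H4 promoters. In the sequences above it begins 46 bases before the start of H2BC12 and of H2BC21, and 130 bases before that of H2AC6 on the opposite strand. The TATAAA nearest the start begins 27 bases before it in H2BC12, 31 in H2AC6, 28 in H2BC5 and 30 in H2BC21. The H2BC5 window holds no exact match to the octamer, and that of H4C8 no exact match to any of the 3 elements. The TCF/LEF core words CTTTGAT and CTTTGAA were in none of the 5 promoters of H2BC12, H2AC6, H2BC5, H2BC21 and H4C8, and in 2 and 1 of the 64, against 2.64% and 4.53% of all promoters. Among the 35 other measured genes with a promoter, 31 held CCAAT, 23 TATAAA and 13 the octamer.

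Among core histones, H2B held the widest range. H2BC12 read 9.10, 9.20 and 8.73 with LEF1 siRNA in batches 1, 2 and 3, against 8.15, 8.07 and 7.87 with scrambled siRNA. Every LEF1 siRNA array lay above every scrambled siRNA array. The difference was 0.98 ± 0.14 (SD of the 3 batch differences), a 1.97-fold higher signal, and ranked 3 among 19775 genes in order of difference, highest first. H2BC5 read 8.21, 8.31 and 7.99 with LEF1 siRNA, against 7.83, 7.74 and 7.70 with scrambled siRNA. Its groups did not overlap either, at a difference of 0.41 ± 0.14. The dimmer probe set of H2BC5 was higher by 0.20 ± 0.21, with batch differences of 0.02, 0.43 and 0.14, and its groups overlapped. H2BC21 read 6.83, 6.89 and 6.72 with LEF1 siRNA, against 6.65, 6.50 and 6.49 with scrambled siRNA. These values all lie below the median of all probe sets and differed by 0.27 ± 0.11.

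The other 11 H2B genes differed by -0.04 to 0.18. At the upper end, H2BC9 was higher in batches 2 and 3, by 0.31 and 0.27, and differed by -0.04 in batch 1. H2BC12L, a gene on chromosome 21 named for its likeness to H2BC12, averaged 8.34 ± 0.25 with LEF1 siRNA and 8.21 ± 0.47 with scrambled siRNA (SD, n = 3 each). Its batch differences of -0.18, 0.38 and 0.18 did not share a sign. H2BC9 and H2BC12L are singled out after their values were seen. H2BC5, H2BC9 and H2BC12L are each read by a probe set of the platform's _x type, whose probes can bind similar sequences. In all, 7 of the 45 genes had such a probe set, and 3 more, H2AC6, H2BC21 and H3C2, had one of the _s type, which can be shared between transcripts. For these genes the share of signal from similar copies is unknown.

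**Figure D1:**
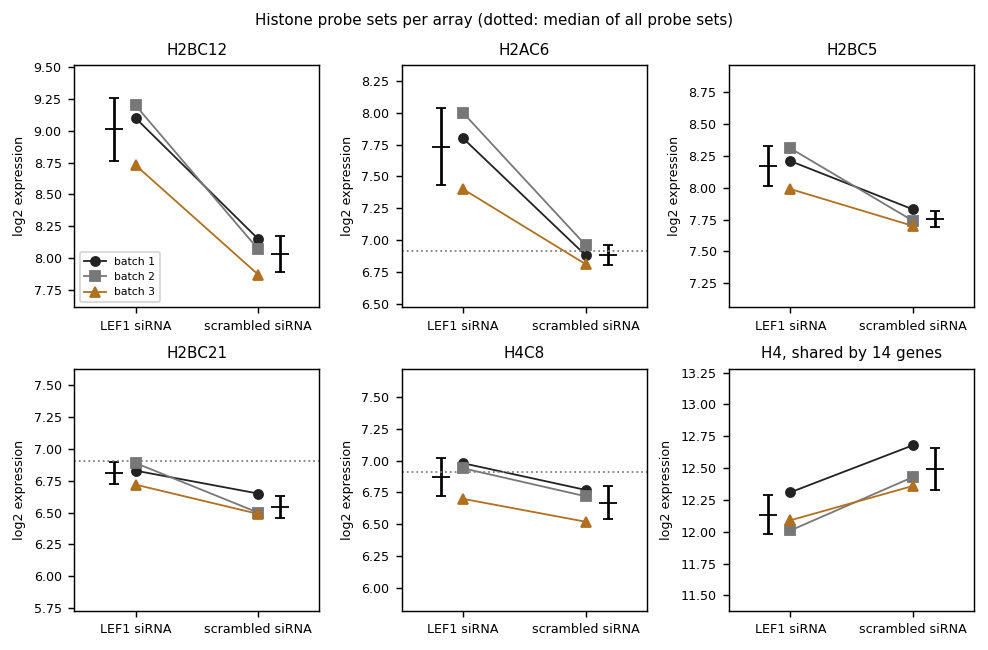
Log2 expression per array of the 5 histone genes that passed with batch as block, and of the H4 probe set shared by 14 genes, with LEF1 siRNA left and scrambled siRNA right. Lines join the 2 arrays of a batch, and bars give the mean and SD over 3 arrays. H2BC12 lies between 8.73 and 9.20 with LEF1 siRNA and between 7.87 and 8.15 with scrambled siRNA, while the shared H4 probe set is lower with LEF1 siRNA in each batch.

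H2AC6 had the largest difference among H2A genes. It read 7.80, 8.00 and 7.40 with LEF1 siRNA, against 6.88, 6.96 and 6.81 with scrambled siRNA. Its difference of 0.85 ± 0.23 ranked 5 among 19775 genes, and the groups lay apart. With scrambled siRNA its mean of 6.88 was close to the median probe set, and the fold was 1.80. H2AC25, which lies away from the main clusters on chromosome 1, averaged 7.28 ± 0.08 with LEF1 siRNA and 7.19 ± 0.04 with scrambled siRNA (SD, n = 3 each), a difference of 0.09. Its further probe set differed by 0.14. The other 7 H2A genes differed by -0.11 to 0.07. Of these, H2AC16, singled out after its values were seen, was lower in each batch, at 6.27, 6.27 and 6.31 with LEF1 siRNA against 6.42, 6.42 and 6.34 with scrambled siRNA.

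Genes with adjoining starts could be set side by side. By their RefSeq promoters, 12 pairs of family genes start within 500 bases of each other in opposite directions, at distances of 194 to 248 bases, and both genes were measured alone in 4 pairs. In this count H2BC7 is paired with both H3C4 and H2AC7. H2AC6 and H2BC4 start 246 bases apart, and the H2AC6 sequence above includes the H2BC4 start. H2BC4 read 6.34, 6.29 and 6.30 with LEF1 siRNA, against 6.30, 6.32 and 6.32 with scrambled siRNA, a difference of -0.01 beside the 0.85 of H2AC6. H2BC4 was dimmer than the median probe set in all 6 arrays. The pairs H2AC14 and H2BC14, H2AC15 and H2BC15, and H2AC17 and H2BC17 differed by 0.07 and 0.02, by -0.06 and -0.04, and by 0.02 and 0.01.

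Linker histone genes differed little. H1-2, a widely expressed somatic linker histone, read 7.08, 6.98 and 7.19 with LEF1 siRNA, against 6.89, 6.82 and 7.01 with scrambled siRNA. It was higher by 0.19, 0.16 and 0.17 in batches 1, 2 and 3, but the arrays of the groups overlapped. H1-4, another somatic form, was at 6.91 ± 0.07 with LEF1 siRNA and 6.98 ± 0.04 with scrambled siRNA, a difference of -0.07. H1-6, the testis form, differed by -0.01 at each of its 2 probe sets. The other 3 linker genes differed by -0.05 to 0.08.

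No H3 gene above the median probe set had 1 sign in all batches. All 7 H3 genes lay between -0.11 and 0.07. H3C8 and H3C11, the H3 genes above the median, named after their values were seen, differed by 0.07 and -0.02, with batch differences of both signs. Among H4 genes, H4C8 stood apart from the rest. It read 6.98, 6.94 and 6.70 with LEF1 siRNA, against 6.77, 6.72 and 6.52 with scrambled siRNA, so it was higher by 0.21, 0.22 and 0.18 within batches while the groups overlapped. Its second probe set was higher by 0.16, and there the groups lay apart. Both are dim. H4C5 read 7.17, 7.02 and 6.89 with LEF1 siRNA, against 7.22, 7.18 and 7.13 with scrambled siRNA, a difference of -0.15. The other 7 H4 genes differed by -0.12 to 0.04.

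**Figure D2:**
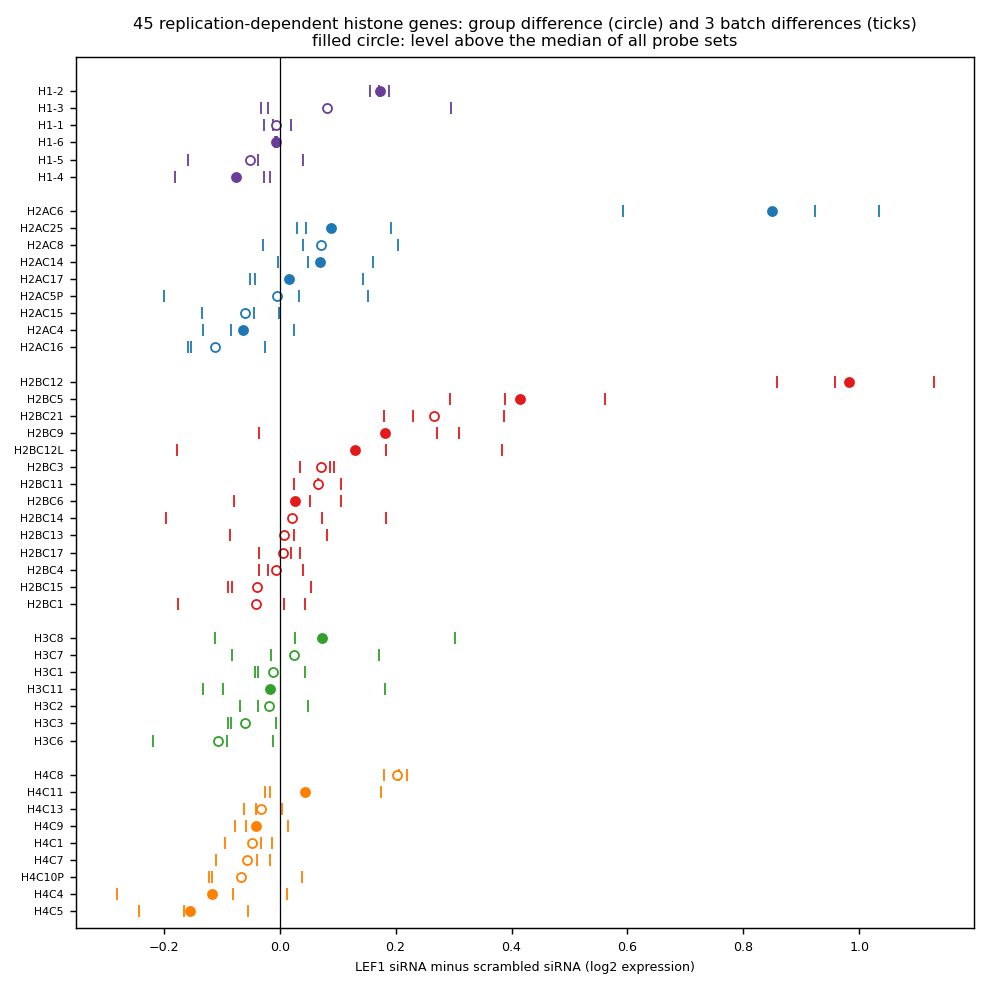
Difference of log2 expression, LEF1 siRNA minus scrambled siRNA, for the 45 histone genes by type. Circles give the group difference, filled where the gene's mean exceeds the median of all probe sets, and ticks give the 3 batch differences. H2BC12 and H2AC6 lie at 0.98 and 0.85, and 33 genes lie within 0.1 of zero.

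Over all 45 genes the median difference was -0.005, beside 0.01 over all 54613 probe sets. Batch medians were -0.04, 0.04 and -0.01. By type the median was -0.01 for H1, 0.02 for H2A, 0.05 for H2B, -0.02 for H3 and -0.05 for H4. A difference smaller than 0.1 was found in 33 of 45 genes (73.3%), against 74.0% of all probe sets. Of the 45, 9 were higher in all 3 batches and 9 lower in all 3, where 22.1% and 14.4% of all probe sets did so. Every LEF1 siRNA array lay above every scrambled siRNA array for 5 genes, beside 7.88% of all probe sets, and below for 3, beside 4.59%. The 5 were H2BC12, H2AC6, H2BC5, H2BC21 and H2BC3, and the 3 were H2AC16, H3C6 and H4C7. H2BC3, H3C6 and H4C7, named after their values were seen, differed by only 0.07, -0.11 and -0.06. The 19 genes above the median level had a median difference of 0.04 and the 26 others one of -0.01. All 27306 probe sets above that level had a median difference of 0.03.

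In the fit across all probe sets with limma and no block, 0 of the 45 genes passed an adjusted p of 0.05, where 0.0183% of all probe sets did, and 4 had an unadjusted p under 0.05, where 7.84% did. With batch as block 5 passed, all higher (H2BC12, H2AC6, H2BC5, H2BC21 and H4C8), where 6.09% of all probe sets passed, 4.58% higher and 1.51% lower. Over the 19775 genes at their brightest probe set, 0.0253% passed without block, and 6.73% were called higher and 1.7% lower with it. These counts come from the comparison for which the family was taken up and are given as a description. H4C8 no longer passed with batch as block under quantile normalization, equal array medians, cyclic loess or poly-A spike-in scaling, nor in the fits that drop 1 batch. H2BC21 did not pass with batch as block under poly-A spike-in scaling or without batch 2. H2BC12, H2AC6 and H2BC5 passed with batch as block under each of these settings. Poly-A spike-in scaling, under which the overall median became -0.11, gave 3 genes called higher and 4 called lower (H2AC16, H3C6, H4C4 and H4C5) in the block fit. That fit called 971 of 54613 probe sets higher and 7826 lower.

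Probe sets that name several histones gave the brightest signal of the family. There were 20, of which 5 name the same 14 H4 genes. The brightest of these 5 read 12.31, 12.01 and 12.09 with LEF1 siRNA, against 12.68, 12.43 and 12.36 with scrambled siRNA. It was lower by 0.37, 0.42 and 0.28 within batches, and the groups lay apart, at 78.1% of the scrambled signal. It was the only one of the 20 to pass with batch as block. That fit called 4.58% of all probe sets higher and 1.51% lower. The 4 other probe sets for the same 14 genes were far dimmer, at means of 5.95 to 7.80, and differed by -0.13 to 0.05. Which of the 14 genes gave the bright signal cannot be read from the array. The 19 other shared probe sets differed by -0.13 to 0.19. The highest, at 0.19, names 10 H3 genes and read 6.92, 6.81 and 6.74 with LEF1 siRNA, against 6.58, 6.64 and 6.68 with scrambled siRNA. A probe set shared by H2BC11 and H2BC8 varied by batch far more than by group. It read 6.96, 7.26 and 8.26 with LEF1 siRNA and 7.52, 6.91 and 8.22 with scrambled siRNA, highest in batch 3 in both groups.

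**Figure D3:**
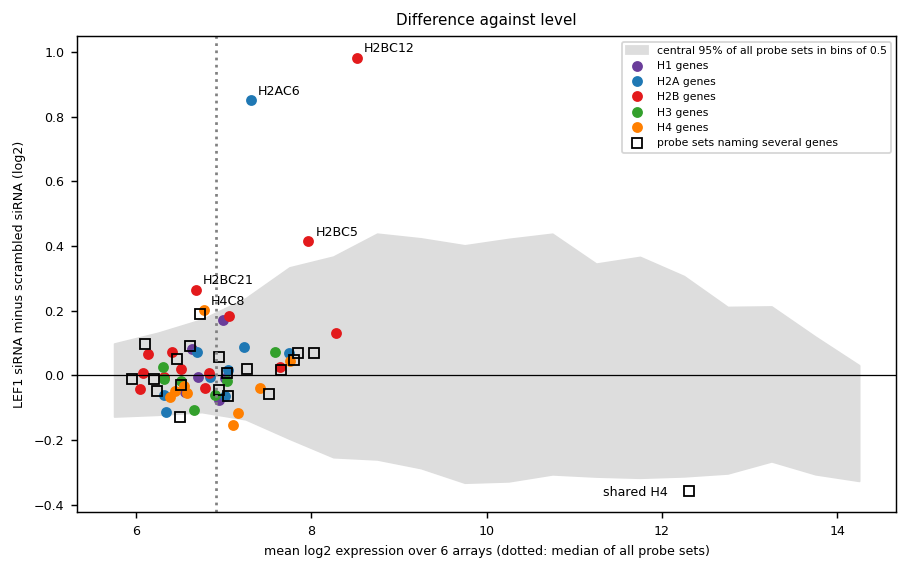
Difference of log2 expression, LEF1 siRNA minus scrambled siRNA, against the mean level over 6 arrays, for histone genes by type (circles) and probe sets naming several histones (squares). The grey band holds the central 95% of all probe sets at each level. H2BC12 and H2AC6 lie above the band, as do H2BC5, H2BC21, H4C8 and a shared H3 probe set at a difference of 0.19. The shared H4 probe set at a level of 12.31 and a difference of -0.36 lies below it. So do H4C5 and a dimmer shared H4 probe set at a difference of -0.13.

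The annotated span of a gene was not used to choose it. In RefSeq, 38 of the 43 protein-coding genes span 386 to 797 bases, the size of a histone coding sequence with its short flanks. The other 5 span 2224 to 13229 bases: H2BC12 with 8566, H2BC5 with 13229, H2BC21 with 2224, H2BC4 with 10757 and H3C6 with 3296 bases. RefSeq holds 3 transcripts each for H2BC12 and H2BC5, 2 each for H2BC4 and H3C6, and 1 for H2BC21. Differences of the 5 were 0.98, 0.41, 0.27, -0.01 and -0.11, with a median of 0.27, and 3 of them passed with batch as block. The median of the 38 short genes was 0.00, and 2 of them passed, H2AC6 and H4C8. The block fit called 6.73% of all genes higher and 1.7% lower. With so few long genes the comparison by span is a description of the annotation and of these arrays.

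**Figure D4:**
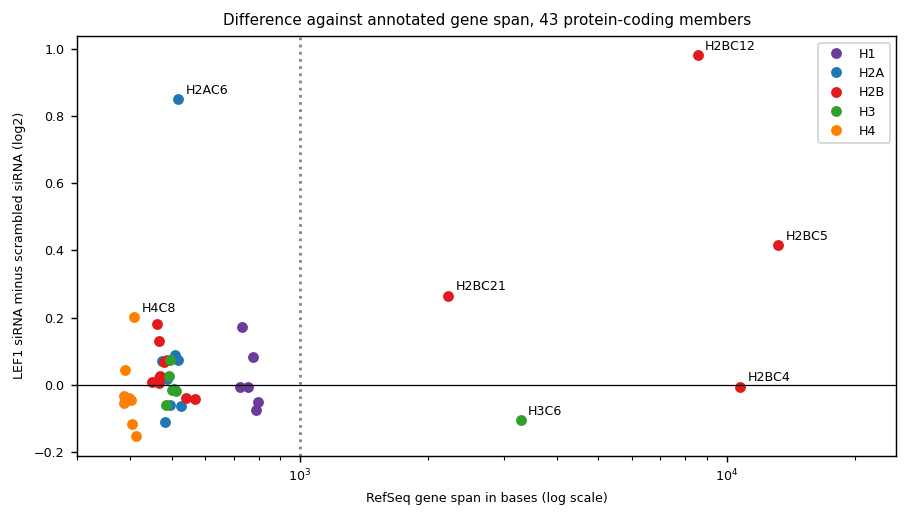
Difference of log2 expression, LEF1 siRNA minus scrambled siRNA, against RefSeq gene span in bases on a log scale, for 43 protein-coding histone genes. The dotted line marks 1000 bases. Right of the line, H2BC12, H2BC5 and H2BC21, lie at 0.27 or above, while H2BC4 lies at -0.01 and H3C6 at -0.11, and H2AC6 lies high left of the line.

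Genes that serve histone supply were taken from lists that are separate from the family. These lists and those below were chosen with earlier results of these data known, so their p-values are given as a description. Genes of histone transcription and histone mRNA processing gave 1 call. Of 20 measured, TUT4 rose and 0 fell in the fit with batch as block, and 0 passed without it, beside the 6.73% and 1.7% of genes called higher and lower. TUT4, a uridylyltransferase that acts on RNA ends, was higher by 0.21 (limma adjusted p = 0.0460 in the block fit and 0.785 in the other). In the block fit TUT4 did not pass after quantile, equal-median, cyclic loess or spike-in scaling (limma adjusted p = 0.1202, 0.0817, 0.112 and 0.291), nor without batch 2 or 3 (0.244 and 0.135). SLBP, the stem-loop binding protein, averaged 12.04 with LEF1 siRNA and 12.11 with scrambled siRNA (limma adjusted p = 0.697 with batch as block). NPAT, the coactivator of histone genes in S phase, averaged 9.22 with LEF1 siRNA and 9.13 with scrambled siRNA (limma adjusted p = 0.574 with batch as block). SLBP and NPAT were named for their role, outside the rule for named genes.

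In the list of histone chaperones and chromatin assembly, 3 of 18 genes fell and 0 rose in the block fit, while 0 passed in the other. Among all genes the block fit called 1.7% lower and 6.73% higher. SSRP1, a subunit of the FACT complex, read 11.27, 11.04 and 11.34 with LEF1 siRNA, against 11.47, 11.75 and 11.82 with scrambled siRNA. It fell by 0.47 (limma adjusted p = 0.00293 with batch as block, 0.233 without). SUPT16H, the other FACT subunit, averaged 11.47 with LEF1 siRNA and 11.48 with scrambled siRNA (limma adjusted p = 0.956 with batch as block). SUPT16H was named outside the rule for named genes. The histone chaperone genes ASF1B and NAP1L4 fell by 0.32 and 0.25 (limma adjusted p = 0.0146 and 0.0268 with batch as block, 0.556 and 0.449 without). Without batch 2 neither passed in the block fit (limma adjusted p = 0.0973 for ASF1B and 0.221 for NAP1L4), nor did NAP1L4 with its probe sets averaged (0.243). The list's median difference was -0.17.

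Of 25 S phase genes measured, 13 fell and 0 rose in the block fit, where 1.7% of all genes were called lower and 6.73% higher. In the other fit 0 passed. The list median was -0.23, with batch medians of -0.17, -0.32 and -0.18. CCNA2, the cyclin A2 gene, averaged 10.47 ± 0.20 with LEF1 siRNA and 11.04 ± 0.12 with scrambled siRNA (SD, n = 3 each). It fell by 0.57, CDC45 by 0.40, RRM2 by 0.35 and PRIM1, a primase subunit, by 0.29 (limma adjusted p = 0.00141, 0.00117, 0.00674 and 0.00750 with batch as block, and 0.170, 0.581, 0.434 and 0.792 without). Without the arrays of batch 2 the block fit called 3 S phase genes and 1407 of 54613 probe sets. RRM2 was not among the 3 (limma adjusted p = 0.0841). RRM2 did not pass at its most variable probe set either (limma adjusted p = 0.137). The mean level of the list was 10.72 to 11.17 over LEF1 siRNA arrays and 11.07 to 11.33 over scrambled siRNA arrays. Its part in the histone differences was not tested.

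Replication-independent histone variants, most of which are made from polyadenylated mRNA outside S phase too, were measured for 9 genes. In the block fit 3 fell and 0 rose, beside 1.7% and 6.73% of all genes, while 0 passed in the other. H2AZ2 fell by 0.70, the linker variant H1-10 by 0.41 and CENPA, the H3 variant of centromeres, by 0.32 (limma adjusted p = 2.12e-05, 0.00138 and 0.0101 with batch as block, and 0.0882, 0.838 and 0.233 without). CENPA did not pass in the block fit without batch 2 (limma adjusted p = 0.112). H2AX averaged 9.48 with LEF1 siRNA and 9.46 with scrambled siRNA and did not pass (limma adjusted p = 0.894 with batch as block).

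**Figure D5:**
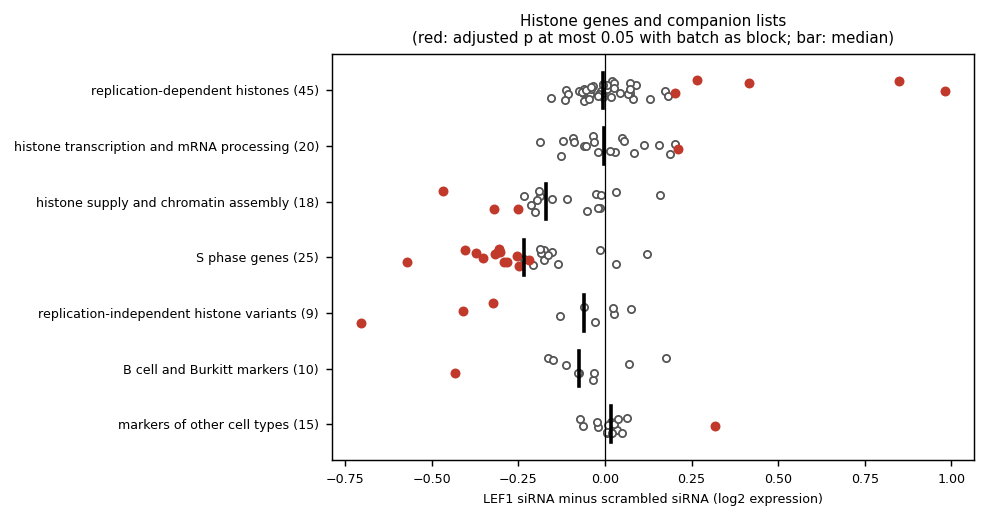
Difference of log2 expression, LEF1 siRNA minus scrambled siRNA, for the 45 replication-dependent histone genes and 6 other lists, with the number of measured genes in brackets. Red points passed with batch as block and bars give list medians. The histone family has a median near zero with 5 points to the right, and the S phase list has its median at -0.23 with 13 red points to the left.

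Of 15 markers of other cell types, PECAM1 rose by 0.32 with batch as block and 14 did not pass. Among all genes 6.73% were called higher in that fit. Without block PECAM1 did not pass (limma adjusted p = 0.391). Nor did it pass in the block fit without batch 2 or under spike-in scaling (limma adjusted p = 0.0688 and 0.0502). The summed linear signal of the 15 was 1876 to 2010 over LEF1 siRNA arrays and 1860 to 1932 over scrambled siRNA arrays, and mean levels ran from 6.14 to 8.04, with CD3E at 6.92 and CD14 at 6.63. An array lists none at 0, since background is included. All 10 measured B cell and Burkitt markers were well above it. Of the 10, MME alone passed with batch as block, where 1.7% of all genes were called lower. It fell by 0.43 (limma adjusted p = 0.000605 with batch as block, 0.700 without). The 3′ minus 5′ difference of the actin control, a sign of RNA integrity, was 0.18 to 0.30 with LEF1 siRNA and -0.03 to 0.10 with scrambled siRNA, so the groups lay apart. That of GAPDH was 0.04 to 0.10 in both. The part of either in the histone differences was not tested.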

How the data were processed

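Gene expression was measured on HG-U133 Plus 2.0 arrays, 3 of LEF1 siRNA and 3 of scrambled siRNA cultures. The authors deposited 1 log2 value per probe set and array, and whether and how they were normalized is not given in the sources used here. The log2 scale was read from the range, 5.45 to 14.95. Per the labels' protocols, biotinylated cRNA was made with the 3′ IVT Express kit. Tests covered 54613 probe sets, without the 62 controls. Symbols were those of the platform annotation, updated through RefSeq for GRCh38.p14 (0 symbols changed).

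Differences between the groups came from limma 3.58.1 under R 4.3.3 and data.table, version 1.17.8 (lmFit and eBayes, two-sided, Benjamini-Hochberg over all probe sets), without block and with batch as block. The batch label pairs the arrays: deviations from group means correlated at 0.477, 0.493 and 0.621 within batches. The block fit has 2 residual degrees of freedom. Members and lists were chosen with earlier results of these data known. Named members were, per histone type, up to 5 with the largest difference among those above the median level with 1 sign in 3 batches, plus each that passed in either fit. From each other list up to 4 that passed were named. Fits were tested on simulated data. Tables and figures used Python 3.11.15, pandas 2.3.3, numpy 2.4.6 and matplotlib 3.10.9. The number of arrays limits the precision.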

Additional observations from a re-analysis of the deposited data

How the results depend on the processing

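Group means and differences are the same with and without the replicate block, and only calls change. With batch as replicate block 5 histone genes passed, against 0 without, and 22 genes of the other lists, against 0. Combined with the block, histone calls numbered 4 after quantile normalization, 4 with equal array medians, 4 after cyclic loess, 7 with poly-A spike-in scaling, 3 with dim probe sets left out, and 6, 3 and 4 without batches 1, 2 and 3. The 7 were 3 higher and 4 lower, since spike-in scaling lowers every difference by the same amount and moves the median of all probe sets to -0.11. In the same order these fits called 3315, 2785, 3240, 8797, 3465, 3880, 1407 and 3626 of all probe sets. Each fit covered 54613, or 27306 with dim probe sets left out. Calls in the other lists were 29, 22, 26, 46, 23, 29, 7 and 29 in the same order. Averaging the probe sets of a gene gave 6 histone calls and 27 in the other lists, where 1287 of 19775 genes passed. The most variable probe set gave 5 and 28, where the block fit called 3328 of the 54613 probe sets. These pairings with the block were added after the data were seen. Without block, spike-in scaling gave 1 histone call (H2BC12) and 1 call in the other lists, quantile and cyclic loess normalization 1 call each in the other lists, and leaving out batch 3 gave 1 histone call (H2BC12). Those fits called 15, 23, 23 and 4 of the 54613 probe sets. Leaving out 1 array gave 0 to 2 histone calls and 0 to 0 calls in the other lists. The 2 were H2BC12 and H2AC6, without LEF1 siRNA replicate 3. Fits without 1 array called 0 to 8 of the 54613 probe sets, the 8 also without that replicate.

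Under spike-in scaling the median difference was -0.12 over the family, and -0.13, -0.10, -0.0735, -0.14 and -0.17 for H1, H2A, H2B, H3 and H4. With dim probe sets left out it was 0.0439 over the family, 0.18 for H2B and 0.0282 for H3. The H1 median was -0.0281, -0.0292 and -0.0228 after quantile, equal-median and cyclic loess scaling. Leaving out 1 array gave medians of -0.02 to 0.02 for the family, -0.0555 to 0.0369 for H1, -0.03 to 0.07 for H2A, 0.0143 to 0.11 for H2B, -0.05 to 0.02 for H3 and -0.06 to -0.03 for H4. H2BC12 ran from 0.86 to 1.12, H2AC6 from 0.72 to 1.02, H2BC5 from 0.29 to 0.50, H2BC21 from 0.15 to 0.32 and H4C8 from 0.08 to 0.29 over the alternatives run, while H2AC25 and H1-6, both near zero, changed sign in at least 1. The cause of these changes was not tested. The planned pseudocount for linear values was not run because the values are log2. The low signal over background of 26 of the 45 genes limits what the arrays can show.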
